A study of Homo sapiens with 4 samples.

Results

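Voltage-gated sodium, calcium and potassium channels, the remaining potassium channels and the subunits that accompany them were examined in BE(2)C, a human neuroblastoma cell line, here carrying a MYCN open reading frame. The genes were chosen by symbol: every row that starts with KCN, CACNA, CACNB or CACNG, or that reads SCN, a number and then A or B. This gave 137 of 19734 gene rows. Single genes are described only where the mean over the 4 libraries was at least 5 on the TPM-like scale of the deposited table (TPM is a level per transcript length, scaled to the library's total). That left 23 channel genes, or 16.8% of them, against 9324 (47.2%) of all gene rows.

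Each of 4 groups was represented by 1 library of polyA RNA, harvested 48 hours after transfection. Cells received an siRNA against MYCN (siMYCN) with the let-7a miRNA mimic, siMYCN with a control mimic (miRCon), a control siRNA (siCon) with let-7a, or siCon with miRCon. All 4 groups carried the MYCN open reading frame, and the labels do not say how it was introduced or whether the line is 1 clone. The series title concerns the formation and function of let-7 in neuroblastoma. No group had a replicate, so each treatment was seen in 2 pairs of libraries that share no library, and no single pair has a replicate check.

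MYCN itself, the siRNA's target, was at 1197 in siMYCN with let-7a and 1238 in siMYCN with miRCon, against 1433 in siCon with let-7a and 1449 in siCon with miRCon. Set against siCon, the siMYCN libraries were at -16.4% in the let-7a pair and -14.5% in the miRCon pair. All 10 sympathetic neuroblastoma markers checked had a mean of at least 5, with a summed level between 2681 and 5181, the highest in siMYCN with let-7a. Fibroblast markers summed to between 246 and 298, with COL1A2 at or near 0 and 5 of 7 above the minimum mean. Epithelial, blood and endothelial markers summed to at most 14.2, 6.57 and 1.81, with CDH1 and HBB at 0 in every library. Whether other cells contributed to the values below was not tested, and in bulk RNA fewer cells of a type and less RNA per cell cannot be told apart.

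Voltage-gated channels open when the membrane potential changes: sodium channels (Nav) start the action potential, calcium channels (Cav) let calcium in for release and signalling, and potassium channels (Kv) end it. Inward rectifier (Kir) and pore-domain leak (K2P) potassium channels set the resting potential, while ion-activated potassium channels answer to internal calcium or sodium. Beta, alpha2delta, gamma, KCNAB, KCNE and KCNIP proteins form no pore themselves and change the trafficking or gating of channels. The let-7a miRNA guides silencing complexes to sites in 3' UTRs that pair with its seed, bases 2 to 8.

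The sequences that bear on the mimic are let-7a and the seed matches that the channel genes hold. The mature let-7a (RefSeq, GRCh38.p14, the same from 3 gene copies) is given first, with its seed in capitals. The sites follow, each at the end of a window of 24 bases read on the gene's strand from the longest 3' UTR in GENCODE 29 on GRCh38, with the matching bases in capitals.
hsa-let-7a-5p: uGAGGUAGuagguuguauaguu
CACNG4: tgtgttccaatgaatcCTACCTCt
SCN8A: ggataataatactgacCTACCTCA
KCNC1: atataaagcccatagtCTACCTCt
KCNAB3: acaagaaacatacagtgTACCTCA
SCN8A holds an 8mer (CTACCTCA) at chr12:51812385-51812408 on the plus strand, starting at base 4972 of a 3' UTR of 5435 bases. CACNG4 and KCNC1 hold a 7mer-m8 (CTACCTC), at chr17:67033005-67033028 and chr11:17773708-17773731, both on the plus strand. KCNAB3 holds a 7mer-A1 (TACCTCA) at chr17:7922720-7922743 on the minus strand. These 4 genes of 23 were 17.4%, against 19.0% of the 8914 tested genes with an annotated 3' UTR. The channel genes had longer 3' UTRs, with a median of 2619 bases against 1510 over the tested genes. Where the 3' UTR was taken from the transcript with the longest coding sequence, KCNC1 lost its site and 3 of 23 remained.

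Potassium channels held most of the channel RNA. Over all 137 rows the values summed to 765 in siMYCN with let-7a, 747 in siMYCN with miRCon, 784 in siCon with let-7a and 743 in siCon with miRCon, between 0.0866% and 0.0909% of the table. The 23 described genes made up between 90.6% and 91.4% of that sum in each library, and the 5 highest alone between 57.2% and 61.6%. The 40 Kv rows took the largest part, at 234 in siMYCN with let-7a, 241 in siMYCN with miRCon, 274 in siCon with let-7a and 265 in siCon with miRCon. Both siMYCN libraries were thus below both siCon libraries for this class, and KCNH2 alone, given below, differed by about as much. The 8 Kv genes above the minimum mean had a median log2 siMYCN effect of 0.105, on the other side of 0 from the difference in the sum.

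Of the calcium channel rows, the auxiliary class held most of the summed level. The 16 auxiliary Cav rows (alpha2delta, beta and gamma) summed to between 135 and 164. A large part was CACNG4, with a mean of 69.1, a gamma subunit better known from AMPA receptors. The class sum is thus no measure of calcium channels alone. The 10 pore-forming Cav alpha1 rows together reached only 2.35 in siMYCN with let-7a, 2.48 in siMYCN with miRCon, 3.49 in siCon with let-7a and 3.95 in siCon with miRCon, and no single one had a mean above 2.04. Sodium channels showed both kinds: the 10 Nav alpha rows, which form the pore, summed to between 24.1 and 30.8, and the 4 Nav beta rows to between 30.5 and 53.4. The Nav beta sum was 53.4 and 47.2 in the siMYCN libraries, with let-7a and miRCon in that order, against 33.1 and 30.5 in the siCon libraries. SCN3B made up nearly all of it, at 49.2 and 43.5 against 31.8 and 28.6.

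Of the 114 channel rows under the minimum mean, 24 had a mean of at least 1, 70 a mean above 0 and under 1, and 20 were listed at 0 in every library. The Kv class had the most rows at 0 in every library, 7 of 40, followed by Kir with 4 of 16 and K2P with 3 of 15. The highest means just under the minimum were 3.66, 4.52 and 4.74, and the lowest just above it were 5.21 (KCNT2), 5.23 (KCNAB3) and 5.30 (CACNB1). The low genes scattered more: the size of the difference between their let-7a effects had a median of 0.26 (log2) for genes with a mean under 20 and 0.19 for those with a mean of at least 20. The table keeps no read depth from which a counting error could be had.

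**Figure D1:**
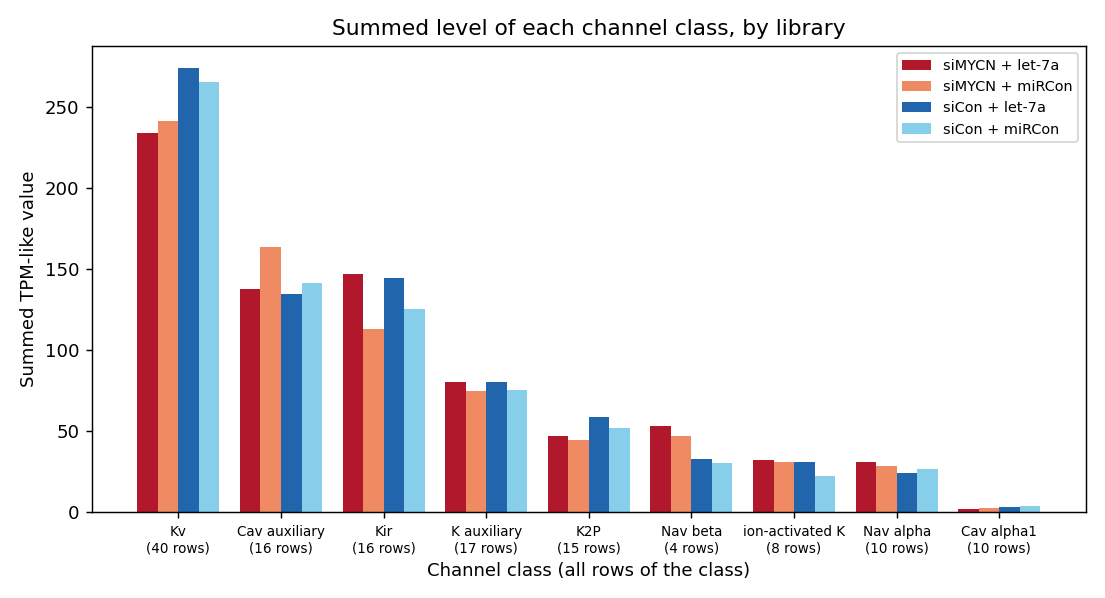
Summed TPM-like value (y axis, linear from 0) of all rows of each channel class (x axis, with the number of rows), with 1 bar per library. The Kv sum was lower in both siMYCN libraries (234 and 241) than in both siCon libraries (274 and 265), by about the difference of KCNH2 alone, the Nav beta sum, nearly all SCN3B, was higher (53.4 and 47.2 against 33.1 and 30.5), and Cav alpha1 rows stayed under 4 in every library.

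KCNH2 was the highest channel gene on average and KCNJ8 the second. KCNH2 (ENSG00000055118.14, chromosome 7 from 150944961 to 150978315, minus strand) encodes the pore of the ERG potassium channel, known for repolarising the heart and also recorded in neuroblastoma cells. It was at 116 in siMYCN with let-7a and 129 in siMYCN with miRCon, against 159 in siCon with let-7a and 154 in siCon with miRCon. The order of these values follows the siRNA, without overlap. KCNJ8, the pore of an ATP-sensitive Kir channel, was at 140 in siMYCN with let-7a, 107 in siMYCN with miRCon, 138 in siCon with let-7a and 121 in siCon with miRCon. Of the annotated exon bases of KCNJ8, 10.8% are shared with an antisense gene. For KCNJ8 the order follows the mimic, and in siMYCN with let-7a it stood above KCNH2.

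Among the Cav auxiliary genes, CACNG4, a gamma subunit best known as a partner of AMPA receptors, was at 57.2 in siMYCN with let-7a, 94.2 in siMYCN with miRCon, 61.1 in siCon with let-7a and 64.1 in siCon with miRCon. One library, siMYCN with miRCon, stood apart from the other 3. CACNA2D1, the alpha2delta subunit that binds gabapentin, ranged from 55.9 to 70.2, with siMYCN and miRCon lowest and siMYCN and let-7a highest. CACNB1, a cytosolic beta subunit, lay between 4.66 and 6.37.

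KCNIP4, a calcium-binding partner of Kv channels, was at 53.3 in siMYCN with let-7a, 44.3 in siMYCN with miRCon, 51.3 in siCon with let-7a and 52.1 in siCon with miRCon. KCNK3, an acid-sensitive K2P leak channel, was at 40.4 in siMYCN with let-7a and 36.8 in siMYCN with miRCon, against 49.9 in siCon with let-7a and 42.3 in siCon with miRCon. Both siMYCN libraries thus lay under both siCon libraries for KCNK3. KCNH8, a relative of KCNH2, varied least of all 23, between 25.3 and 27.9, while KCNG1, which forms no channel alone and modifies other Kv channels, lay between 20.2 and 26.8.

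**Figure D2:**
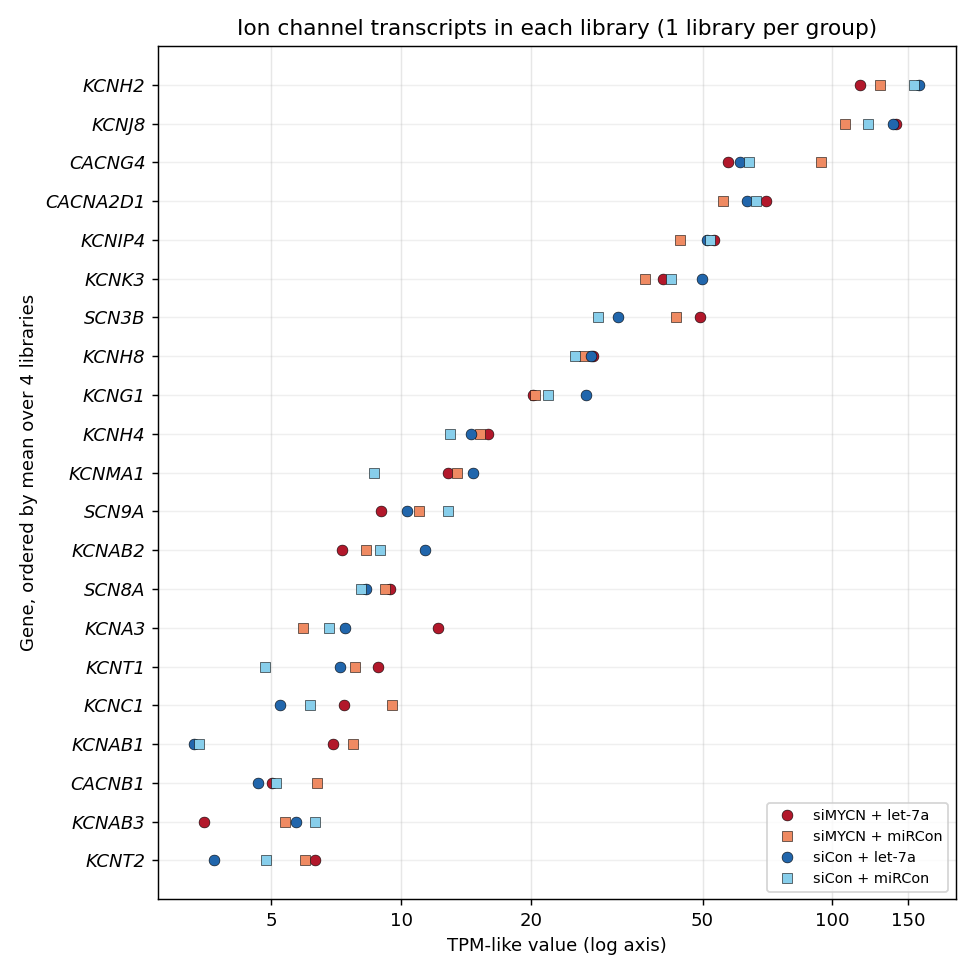
TPM-like value (x axis, log scale) of 21 of the 23 channel genes with a mean of at least 5 (rows, ordered by mean), with 1 point per library and no replicates. KCNH2 and KCNJ8 lie above 100 in every library, 9 genes have a mean of at least 20, and KCNAB1 shows the widest spread, from 3.32 to 7.75.

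The siMYCN comparison addressed which RNAs differ with the siRNA against MYCN. SCN3B and KCNAB1, both accessory subunits, had the largest positive effects over both pairs. KCNAB1 was kept only through the siMYCN libraries, so its place here is a description. KCNH2 was below 0 in both pairs, and 0 of the 23 genes passed the test. By limma with Benjamini-Hochberg adjustment over 9324 genes, 0 channel genes were called higher, where 2.07% of all tested genes were, and 0 lower, where 1.36% were. At an unadjusted p under 0.05, limma had 2 of 23 higher and 1 lower, against 17% and 9.4% of all tested genes. The 2 are SCN3B and KCNAB1, so nothing is read from that count. The test fits siRNA and mimic as additive terms, so its 1 residual degree of freedom is the interaction and its SE rests largely on other genes.

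SCN3B encodes a beta subunit that joins the sodium channel pore and shapes its gating (ENSG00000166257.8, chromosome 11 from 123629187 to 123655244, minus strand). It was at 49.2 in siMYCN with let-7a and 43.5 in siMYCN with miRCon, against 31.8 in siCon with let-7a and 28.6 in siCon with miRCon. The libraries with siMYCN did not overlap those with siCon, and the log2 fold changes were 0.62 with let-7a and 0.59 with miRCon. The effect over both pairs was 0.60 ± 0.10 (SE of the limma model, n = 4 libraries), with an adjusted p of 0.0502 by limma, just over the threshold of 0.05. With values rescaled by median ratios the adjusted p was 0.0353 and the effect 0.54, and among genes with a mean of at least 20 the adjusted p was 0.0367. Over all alternatives run, this p by limma ranged from 0.0353 to 0.193.

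KCNAB1, a cytosolic beta subunit of Kv channels (ENSG00000169282.17, chromosome 3 from 156037701 to 156539138, plus strand), was at 6.96 in siMYCN with let-7a and 7.75 in siMYCN with miRCon. In the siCon libraries it was at 3.32 with let-7a and 3.41 with miRCon, so the groups did not overlap. Its log2 fold change was 0.94 ± 0.22 over both pairs (SE, n = 4 libraries; adjusted p = 0.0756 by limma), the largest of the 23 genes, at a low level. Both its siCon values lie under the minimum mean of 5, so it was kept only through the siMYCN libraries, and its rank is a description. The other KCNAB genes had values on the other side of 0: KCNAB2 had -0.57 with let-7a and -0.10 with miRCon, and KCNAB3 had -0.58 and -0.20. KCNAB3 was at 3.50 in siMYCN with let-7a and 5.38 in siMYCN with miRCon, against 5.71 in siCon with let-7a and 6.32 in siCon with miRCon. KCNAB2 was at 7.29 in siMYCN with let-7a and 8.27 in siMYCN with miRCon, against 11.3 in siCon with let-7a and 8.95 in siCon with miRCon. For both genes the siMYCN libraries lay below the siCon libraries, and neither passed the test (adjusted p = 0.345 for KCNAB3 and 0.347 for KCNAB2 by limma).

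SCN3B and KCNAB1 were at least 1.5-fold higher in both pairs, as were 2.85% of all tested genes, and 0 channel genes were that much lower, against 1.61%. Nothing is read from this count of 2, since KCNAB1 passed the minimum mean only through siMYCN, as did KCNT2. SCN3B met this fold narrowly, and with rescaled values KCNAB1 alone met it. In sign, 10 of the 23 were higher in both pairs, 6 lower and 7 had opposite signs, against 43.2%, 27.4% and 29.4% of all tested genes. The shares of channel genes were 43.5%, 26.1% and 30.4%, close to that background. The 10 include KCNAB1 and KCNT2, so the share of 43.5% is a description.

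Among the pore-forming Kv genes, KCNH2 had the lowest siMYCN effect, at -0.35 ± 0.083 (SE, n = 4 libraries; adjusted p = 0.075 by limma), with -0.45 in the let-7a pair and -0.26 in the miRCon pair. With values rescaled by median ratios the effect was -0.42 with an adjusted p of 0.0344 by limma, and over all alternatives this p ranged from 0.0344 to 0.202. KCNC1, a fast Kv channel of rapidly firing neurons, had a positive effect of 0.49 ± 0.20 (adjusted p = 0.192 by limma). It was at 7.36 in siMYCN with let-7a and 9.54 in siMYCN with miRCon, against 5.23 in siCon with let-7a and 6.15 in siCon with miRCon. For KCNH4, of the same family as KCNH8, the values were 15.9 in siMYCN with let-7a and 15.2 in siMYCN with miRCon, against 14.5 in siCon with let-7a and 13.0 in siCon with miRCon. For KCNC1 and KCNH4 the siMYCN libraries lay above the siCon libraries without overlap, by small amounts.

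The sodium-activated channels KCNT1 and KCNT2 lay on the same side. KCNT2 was kept only through the siMYCN libraries, so its side is a description. KCNT1 was at 8.84 in siMYCN with let-7a and 7.83 in siMYCN with miRCon, against 7.22 in siCon with let-7a and 4.84 in siCon with miRCon. KCNT2 was at 6.32 and 5.99 in the siMYCN libraries, with let-7a and miRCon in that order, against 3.68 and 4.87 in the siCon libraries. Their effects over both pairs were 0.43 ± 0.21 and 0.45 ± 0.23, with adjusted p-values of 0.254 and 0.285 by limma. KCNMA1, the large-conductance calcium-activated channel, did not share this order: it was at 12.8 in siMYCN with let-7a, 13.5 in siMYCN with miRCon, 14.7 in siCon with let-7a and 8.64 in siCon with miRCon, with that last library apart.

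The leak channel KCNK3 had a siMYCN effect of -0.25 ± 0.10 and KCNG1 one of -0.24 ± 0.14, with adjusted p-values of 0.205 and 0.329 by limma. KCNG1 was at 20.2 and 20.4 in siMYCN with let-7a and with miRCon, against 26.8 and 21.9 in siCon with let-7a and with miRCon. Of the sodium channel pores, SCN8A, of central neurons, was at 9.44 in siMYCN with let-7a and 9.20 in siMYCN with miRCon, against 8.29 in siCon with let-7a and 8.05 in siCon with miRCon. SCN9A, known from sensory and sympathetic neurons, was at 9.00 in siMYCN with let-7a and 11.0 in siMYCN with miRCon, against 10.3 in siCon with let-7a and 12.8 in siCon with miRCon. The siMYCN effects of these pore genes were 0.17 ± 0.18 for SCN8A and -0.19 ± 0.16 for SCN9A, each about the size of its SE.

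Counted by values that do not overlap, 8 of 23 genes had both siMYCN libraries above both siCon libraries, and 5 had both below. These were 34.8% and 21.7%, against 35.6% and 21.1% of all tested genes. The 8 include KCNAB1 and KCNT2, kept only through the siMYCN libraries, so their share is a description. Both genes also enter the median and the counts by sign that follow. The median siMYCN effect of the 23 was 0.17, against 0.056 over all tested genes. In the let-7a pair alone the median was 0.0902, against 0.048 over all tested genes. In the miRCon pair alone it was 0.065, against 0.0695, so below that background. Over both pairs the median was -0.074 among the 9 genes with a mean of at least 20. Of those 9 genes 6 had an effect below 0, and of the 14 with a mean under 20, 10 had one above 0, so the sign of the median depended on which levels were kept.

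**Figure D3:**
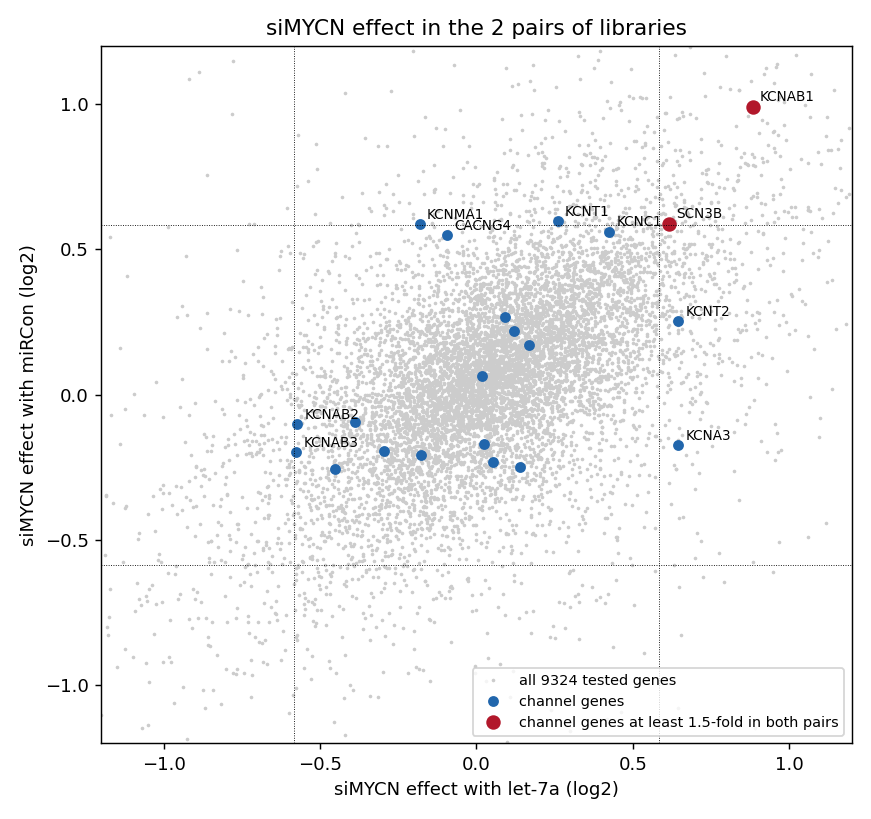
log2 fold change of siMYCN against siCon in the pair with let-7a (x axis) and in the pair with miRCon (y axis). Points are genes, grey for all 9324 tested (224 lie outside the axes), blue and red for 21 channel genes, and dotted lines mark 1.5-fold. SCN3B and KCNAB1, in red, are the only channel genes past 1.5-fold in both pairs. KCNAB1 was kept only through the siMYCN libraries, so its position is a description.

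The let-7a comparison asked which RNAs differ with the mimic. No channel gene was called by limma (0 higher and 0 lower), as was the case for 0% of all tested genes in each direction. At an unadjusted p under 0.05, limma had 1 of 23 higher, KCNJ8, and 0 lower, against 2.77% and 4.71% of all tested genes. At 1.5-fold in both pairs 0 were higher and 0 lower, against 0.204% and 0.257% of all tested genes. The median effect of the 23 was 0.075, against -0.031 over all tested genes. In sign, 8 were higher in both pairs, 7 lower and 8 had opposite signs, against 22.6%, 33.5% and 44% of all tested genes.

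CACNG4, which holds a 7mer-m8 site, had the lowest let-7a effect of the 23, at -0.39 ± 0.16 (SE, n = 4 libraries; adjusted p = 0.663 by limma). Its log2 fold changes were -0.71 with siMYCN and -0.069 with siCon, so most of the value came from the siMYCN pair, where CACNG4 was at 57.2 with let-7a and 94.2 with miRCon. KCNAB3, with a 7mer-A1, came next, at -0.50 with siMYCN and -0.13 with siCon. KCNC1, with a 7mer-m8, had -0.33 with siMYCN and -0.20 with siCon. SCN8A, which holds the only 8mer, had 0.034 with siMYCN and 0.037 with siCon.

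These 4 genes had a median let-7a effect of -0.29, against 0.10 for the 19 channel genes without a site, and the effects within the groups ran from -0.39 to 0.036 and from -0.28 to 0.52. The median of the 4 was -0.42 in the siMYCN pair and -0.098 in the siCon pair, against 0.066 and 0.11 for the 19. None of the 4 passed the test, and the difference between genes with and without a site was not tested. Over all tested genes, medians were -0.084 for 394 genes with an 8mer, -0.062 for 635 with a 7mer-m8, -0.059 for 667 with a 7mer-A1 and -0.025 for 7218 with none. SCN9A has no site and had a let-7a effect of -0.28 ± 0.16, at 9.00 and 11.0 in siMYCN with let-7a and miRCon, and at 10.3 and 12.8 in siCon with let-7a and miRCon.

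**Figure D4:**
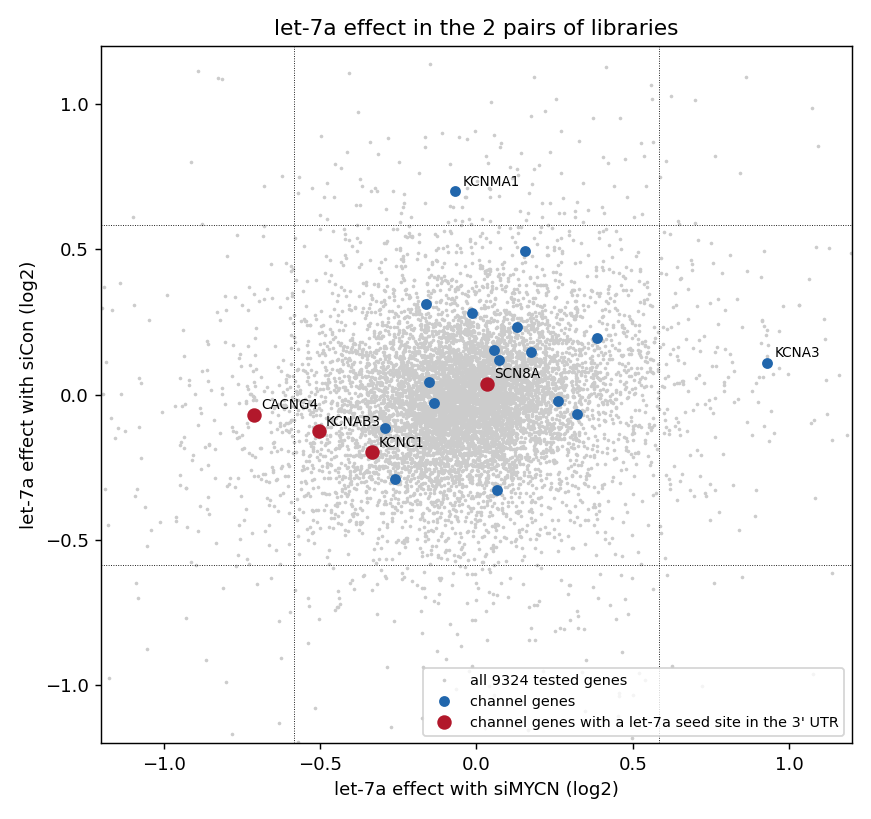
log2 fold change of let-7a against miRCon in the pair with siMYCN (x axis) and in the pair with siCon (y axis). Points are genes, grey for all 9324 tested (87 lie outside the axes) and coloured for 21 channel genes, with the 4 that hold a let-7a seed site in red, and dotted lines mark 1.5-fold. CACNG4, KCNAB3 and KCNC1 lie below 0 in both pairs and SCN8A lies at 0.034 and 0.037.

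On the higher side, KCNA3, a Kv channel best known from T cells, had the highest let-7a effect, at 0.52 ± 0.26 (adjusted p = 0.685 by limma). It was at 12.2 in siMYCN with let-7a and 5.91 in siMYCN with miRCon, and at 7.42 in siCon with let-7a and 6.80 in siCon with miRCon. One library, siMYCN with let-7a, thus carried that value. KCNJ8 had 0.29 ± 0.084 (adjusted p = 0.663 by limma), with log2 fold changes of 0.39 with siMYCN and 0.19 with siCon. KCNT1 had an effect of 0.32, with 0.16 in the siMYCN pair and 0.49 in the siCon pair. KCNMA1 also had 0.32, but from opposite signs, -0.067 with siMYCN and 0.70 with siCon, where the siCon library with miRCon stood apart. KCNK3 had 0.18 ± 0.10 and SCN3B 0.16 ± 0.10.

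Values with let-7a lay above both miRCon libraries without overlap for 3 of 23 genes, KCNJ8, KCNH8 and KCNA3, against 8.9% of all tested genes. They lay below for 3, CACNG4, SCN9A and CACNB1, against 16.2%. The shares of channel genes were 13% each way.

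**Figure D5:**
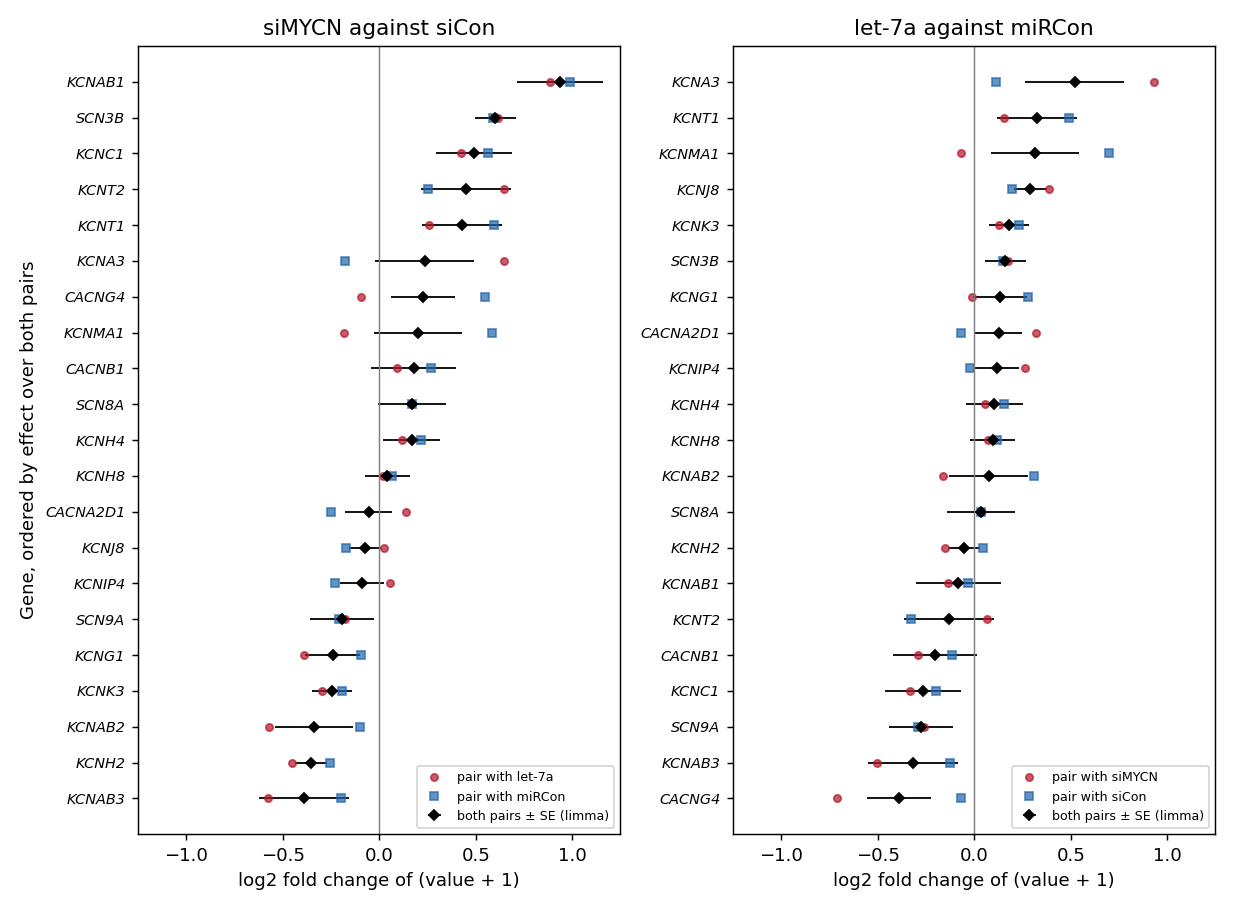
log2 fold changes of 21 channel genes for siMYCN against siCon (left) and let-7a against miRCon (right), each panel ordered by its effect over both pairs. Diamonds with bars are the effect ± SE of the additive limma model, circles and squares the single pairs. SCN3B and KCNAB1 have both siMYCN pairs well above 0, while KCNA3 and KCNMA1 have siMYCN pairs on either side of 0. KCNAB1 was kept only through the siMYCN libraries, so its position is a description.

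The let-7a effects in siMYCN and siCon cells could be set beside each other but not tested, since their difference leaves no residual degrees of freedom. They differed at least 2-fold for 1 of 23 channel genes in the direction higher with siMYCN, against 1.16% of all tested genes, and for 0 in the direction lower, against 1.23%. Of the genes described, KCNA3 was at 0.82 higher with siMYCN, and KCNT2 and CACNA2D1 were at 0.39 each. On the other side were KCNMA1 at -0.77, CACNG4 at -0.64 and KCNAB2 at -0.47.

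With both treatments against neither, a single pair of libraries with no test, 4 of 23 channel genes were at least 1.5-fold higher, against 7.5% of all tested genes, and 1 was lower, against 5.97%. KCNAB1 had a log2 fold change of 0.85, SCN3B of 0.76, KCNA3 of 0.76 and KCNT1 of 0.75. KCNAB3 had -0.70. The 4 higher genes include KCNAB1, kept only through the siMYCN libraries, so their share is a description and nothing is read from it. This pair shares its libraries with the comparisons above, so it is no separate observation of the same genes.

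The only word searched in promoters was the MYC and MYCN E-box CACGTG, which reads the same on both strands, in windows of 250 bases before to 50 after the gene start that RefSeq gives. Of the 17 channel genes with an entry, 1 held it, KCNH4 (5.88%), against 10.7% of 7256 tested genes and 7.26% of all 35116 windows. SCN3B had no entry, so its promoter was not searched, nor were those of CACNG4, KCNG1 and KCNAB3. For 15 of the 17 the RefSeq start lay within 1210 bases of the GENCODE 29 gene start. For KCNA3 and KCNAB1 it lay 3258 and 82847 bases downstream, so their windows say nothing about the start given by GENCODE. For KCNAB2, SCN8A, KCNJ8, KCNT2 and KCNMA1 it lay 1210, 967, 875, 785 and 561 bases downstream. For CACNA2D1 it lay upstream by more than the 50 bases that a window holds after the start. The windows of these genes do not reach the GENCODE start either.

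Genes that work with these channels were counted in lists. Of 16 tested channel partners, limma called 1 higher and 1 lower with siMYCN, where 2.07% and 1.36% of all tested genes were. CALM2, a calmodulin gene and a calcium sensor for several channels, rose with siMYCN, at 1189 in siMYCN with let-7a and 1169 in siMYCN with miRCon against 821 in siCon with let-7a and 823 in siCon with miRCon (log2 fold change 0.52 ± 0.049, adjusted p = 0.0264 by limma). CNTNAP2, which clusters Kv channels along axons, fell, at 6.44 in siMYCN with let-7a and 14.6 in siMYCN with miRCon against 33.1 in siCon with let-7a and 32.2 in siCon with miRCon (-1.64 ± 0.28, adjusted p = 0.0488 by limma). For both genes the siMYCN libraries lay apart from the siCon libraries.

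Of 10 tested pumps and exchangers, 1 was called higher with siMYCN and 0 lower, where 2.07% and 1.36% of all tested genes were. It was ATP1B3, a beta subunit of the sodium-potassium pump, at 224 in siMYCN with let-7a and 254 in siMYCN with miRCon against 175 in siCon with let-7a and 188 in siCon with miRCon (0.39 ± 0.067, adjusted p = 0.0493 by limma). The adjusted p-values of ATP1B3 and CNTNAP2 lie just under the threshold of 0.05, and their range over the alternatives is not given. No gene was called among 22 other channels (0), 8 genes of calcium release and store entry (0) or 7 of the REST repressor complex (0), which silences neuronal genes. At an unadjusted p under 0.05, limma had 4 higher and 3 lower in the other channels, 1 and 3 in calcium release, and 1 and 1 in the REST list, where 17% and 9.4% of all tested genes were. In the partners it had 2 and 5, and in the pumps 2 and 2. In the other channels the 2 genes of highest mean level were ANO6 (-0.015) and TRPM7 (-0.011). In calcium release they were ORAI1 (0.23) and ORAI2 (0.72), and in the REST list HDAC2 (0.21) and KDM1A (0.12). Each of these values is a log2 siMYCN effect over both pairs. The list medians of the siMYCN effect were 0.021 for partners, 0.060 for other channels, -0.11 for pumps, -0.34 for calcium release and 0.12 for the REST list, against 0.056 over all tested genes. With let-7a, limma called 0 genes of any of these lists, and at an unadjusted p under 0.05 it had 1 lower partner and 1 lower other channel, where 4.71% of all tested genes were.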

How the data were processed

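The authors deposited 1 table of natural log values, with 1 value per gene symbol and library. Per the submitters' processing notes, the tools were Salmon 0.3.2 and HISAT 0.1.6 with the build GRCh38, in roles that the notes leave unstated. What annotation, strand setting and log step were used is not stated in the sources used here. Undoing the log as exp(x) - 1 gave library sums from 855811 to 862049, where base 2 would give at most 147588, so the values were treated as TPM-like, of unknown depth. Rows for 11 vector sequences and 92 spike-ins were left out.

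The members and lists were chosen with earlier results of these data known. Genes with a mean of at least 5 were fitted with limma 3.58.1 (trend, R 4.3.3) on log2(value + 1), where changes of low genes come out too small. The terms were siRNA and mimic, with 4.30 prior beside 1 residual degree of freedom, and Benjamini-Hochberg adjustment ran over all 9324 genes. The p-values assume that the effects add, and nothing says that libraries came from separate cultures. The fit was tested on simulated let-7a changes. It called 13.4% of those of 1.5-fold, 53.7% of those of 2-fold and 86.4% of those of 4-fold, with 7 false calls. A count of 0 called genes can therefore miss most changes of 1.5-fold. The simulated effects added, and the changed genes were drawn at random from all 9324. These rates therefore need not hold for the 23 channel genes, and those of low level may be called less often. Named genes were channel genes with a mean of at least 5 (2 of the 23 are not reported here by name and enter the counts, class sums and medians only), and of each related list up to 4 called genes or else the 2 of highest mean. Alternatives were pseudocounts of 0.1 and 5, a mean of at least 20, no filter, median-ratio rescaling, no trend, robust variance, other folds, another 3' UTR and each pair alone. For single genes, the mean of at least 20 and no filter were added after seeing the data. Coordinates and 3' UTRs came from GENCODE 29, which held all 23 symbols. Exons of 12 channel genes share bases with another annotated gene, on the opposite strand for all but KCNAB3, and the deposited values cannot show how such reads were divided.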

Additional observations from a re-analysis of the deposited data

How the results depend on the processing

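No paired analysis was possible because the labels give no replicate numbers that could serve as a block, while the additive fit already sets siMYCN against siCon within each mimic and let-7a against miRCon within each siRNA. No library could be left out, since the additive fit would then have no residual degrees of freedom, and the single pairs stand in its place. For siMYCN, the count of channel genes called was 0 higher and 0 lower and became 1 higher (SCN3B) and 1 lower (KCNH2) with rescaled values, and 1 higher (SCN3B) at a mean of at least 20. Rescaling moved the median siMYCN effect of all tested genes to -0.0030, against 0.056 as deposited. The count of 2 genes 1.5-fold higher in both pairs became 0 with a pseudocount of 5, 1 with rescaling, 1 at a mean of at least 20 and 0 at 2-fold. The 1 gene whose let-7a effects differed 2-fold upward became 0 with a pseudocount of 5, at a mean of at least 20 and at 3-fold, 2 at 1.5-fold and 5 of 117 with no filter, and the 0 downward became 2 at 1.5-fold and 3 with no filter. For the combined treatment, 4 higher became 1 with a pseudocount of 5, 1 at a mean of at least 20, 0 at 2-fold and 10 with no filter, and 1 lower became 0 with a pseudocount of 5, at a mean of at least 20 and at 2-fold, 3 at the smaller fold tried and 4 with no filter.

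The median siMYCN effect of 0.17 was 0.11 with a pseudocount of 5, 0.111 with rescaling, -0.0742 at a mean of at least 20, 0.0118 with no filter, 0.0902 in the let-7a pair and 0.065 in the miRCon pair. The median let-7a effect of 0.075 was 0.0795 and 0.0589 with pseudocounts of 0.1 and 5, 0.106 with rescaling, 0.127 at a mean of at least 20, 0.0179 with no filter, 0.0342 in the siMYCN pair and 0.0373 in the siCon pair. These medians moved by more than the SD between the medians of the single pairs. That SD rests on 2 medians and measures no replicate spread, so even small shifts pass it. Rescaled, the summed level of all rows was 719 in siMYCN with miRCon and 807 in siCon with let-7a. KCNH8 had a siMYCN effect of -0.0187 when rescaled, against 0.041. The causes were not tested. The unknown depth limits what can be said of genes near a mean of 5.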
